A study of Mus musculus with 12 samples.

Results

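Expression of 10 genes of the Nodal pathway was examined in mouse embryos of stage E7.25, in 4 sorted cell types. The genes were the ligands Nodal, Gdf1 and Gdf3, the co-receptors Tdgf1 and Cfc1, the receptors Acvr1b and Acvr2b, and the secreted antagonists Lefty1, Lefty2 and Cer1. They were chosen by name, with their levels in these libraries already known, so their levels and differences are given as a description with no test. Matching the Ensembl identifier without its version to these symbols found 9 of the 10 among the 38924 genes counted, of which 37607 had a symbol. Gdf1 was not analysed here. Of the 9 members, 8 passed the expression filter and Gdf3 did not.

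All embryos were of the Foxa2Cre:Rosa26-YFP line, in which a Cre recombinase driven by the Foxa2 gene switches on a yellow fluorescent protein (YFP) reporter at the Rosa26 locus. Fluorescence therefore marks cells that expressed Foxa2 or descend from such cells, whether or not they still express it. The 4 types, with 3 libraries each, were YFP-positive cardiac mesoderm, called ventricular in the labels, YFP-negative cardiac mesoderm, called non-ventricular, endoderm sorted on EPCAM, and hematopoietic mesoderm sorted on KDR. No group received a treatment, and the labels do not say whether the 3 libraries of a type came from separate embryos or litters, so the spread between them may be technical.

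Nodal is a secreted protein of the TGF-beta family that patterns the gastrulating embryo. It is made as a precursor, is cut by proprotein convertases, and signals through a complex of type I and type II activin receptors with a membrane-anchored co-receptor of the EGF-CFC family. The activated receptors phosphorylate SMAD2 and SMAD3, which enter the nucleus with SMAD4 and act with partners such as FOXH1. The Lefty proteins and Cerberus block the pathway outside the cell, and both Nodal and Lefty genes are among its targets. In the mouse gastrula the pathway is known for its part in the specification of mesoderm and definitive endoderm and in the left-right axis.

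Each library held 4472800 to 7888631 reads counted in genes, which were 18.3% to 21.5% of the tallied reads. Levels are CPM, counts scaled to a common library total by the trimmed-mean method, and 3 counts in a library corresponded to 0.357 to 0.723 CPM. The labelled types matched most of their markers. The summed level of 8 cardiac mesoderm markers was 1388 to 1816 CPM in the 6 cardiac libraries and 116 to 187 CPM in endoderm. Hematopoietic replicate 3 stood apart: it held 1704 CPM of the cardiac markers, against 836 and 1006 in replicates 1 and 2, and the erythroid factor Gata1 was at 0.210 CPM, against 74.2 and 46.6. Kdr, the gene of the sort and also a hematopoietic marker, gave 965 CPM of that sum, and without it the sums were 171, 306 and 739 CPM in replicates 1, 2 and 3. The cardiac markers Mesp1 and Tbx5 were at 0 in replicate 3, and Myl7 was at 1.26 CPM there, against 25.5 and 18.2. The 8 hematopoietic markers, Kdr included, summed to 2302, 2510 and 2049 CPM in replicates 1, 2 and 3. In the 6 cardiac libraries they summed to 547 to 993 CPM. Of the 8, 2 were highest in replicate 3: Kdr, and Etv2 at 42.6 CPM against 32.5 and 28.2. Cdh5, at 146 CPM, lay between the other replicates, and Pecam1 was at 0.210 CPM, against 21.4 and 28.7. The endoderm libraries also held markers of other cells. All 9 visceral endoderm markers were found in each, at a summed 2083 to 5782 CPM against 59.6 to 271 CPM in the other 9 libraries. Their 7 epiblast and ectoderm markers summed to 812 to 889 CPM, against 7.27 to 472 CPM elsewhere. Of the 4 node and notochord markers, Noto was at 10.6 to 25.4 CPM and Foxj1 at 57.9 to 95.9 CPM in endoderm, and neither exceeded 0.925 CPM in the other libraries. Of the other two, Shh was at 11.1, 0.259 and 0.238 CPM in endoderm replicates 1, 2 and 3, and T averaged 176 CPM in endoderm and 283 CPM in hematopoietic mesoderm. In bulk libraries such as these, fewer cells expressing a gene and less RNA per cell cannot be told apart.

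Nodal (ENSMUSG00000037171.6), the ligand that names the pathway, lies on the plus strand of chromosome 10 at 61417972 to 61425338 (GRCm38). Its transcripts were found mainly in endoderm, at 50.7, 26.8 and 47.7 CPM, from 319, 207 and 401 counts. In YFP-positive cardiac mesoderm it was at 0, 0 and 9.44 CPM, the last from 51 counts. YFP-negative cardiac mesoderm held 0, 0.140 and 1.01 CPM, from 0, 1 and 7 counts, and all 3 hematopoietic libraries had 0 counts. All endoderm libraries were therefore above the 9 others, and the other 3 types overlapped at 0. Mean levels were 41.7 ± 13.0 CPM in endoderm, 3.15 ± 5.45 in the YFP-positive and 0.385 ± 0.549 in the other cardiac fraction (SD, n = 3). The mean in endoderm was 13.3 times that in YFP-positive cardiac mesoderm and 108 times that in YFP-negative cardiac mesoderm, with a 95% counting interval of 52.3 to 240. The latter ratio was 596 without YFP-negative replicate 3 and 72.3 without replicate 1 of that fraction. Against hematopoietic mesoderm it was at least 66.9-fold higher, taking 3 counts per library as the floor.

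The Nodal level of YFP-positive cardiac mesoderm rested on replicate 3. Between the YFP-positive and YFP-negative fractions the fitted log2 fold change was 2.95 ± 1.94 (SE), and it was -4.33 without that library. Against endoderm it was -3.72 ± 1.95, and -11.0 without it. The 2 YFP-positive libraries left had 0 counts, so both values without it depend on the count added to zeros. The same library held Foxa2, which encodes a forkhead factor of endoderm and node, at 5.92 CPM, against 0.416 and 0 in replicates 1 and 2. Of the 7 general endoderm markers, 3 were highest in this library and 4 in replicate 1, where Sox17 was at 33.5 CPM against 1.67. The 7 summed to 446, 210 and 264 CPM in replicates 1, 2 and 3. Replicate 3 held an epiblast marker sum of 472 CPM, against 301 and 142, with Otx2 and Fgf5 giving most of it. Of the node and notochord markers it held 1 count each of Noto and Shh and 5 of Foxj1, against 0, 0 and 1 in replicate 1 and 0, 0 and 2 in replicate 2, and T was at 104 CPM, against 73.7 and 18.4. The counts of Noto and Shh were under the floor of 3 counts per library. The part of other cells in the Nodal level was not tested, nor was the part of the epiblast and node markers in the endoderm level.

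The 250 bases before the start site of Nodal (chr10:61417722-61417971, plus strand, GRCm38.p6) and of the antagonist Cer1 (chr4:82885152-82885401, minus strand) are shown because transcripts of both genes were highest in the same 3 libraries. They come from the RefSeq promoter table, which has entries for 7 of the 10 members (Gdf3, Lefty1 and Lefty2 have none). They are written 5' to 3' in the direction of transcription, and capitals mark the single motif match.

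Nodal: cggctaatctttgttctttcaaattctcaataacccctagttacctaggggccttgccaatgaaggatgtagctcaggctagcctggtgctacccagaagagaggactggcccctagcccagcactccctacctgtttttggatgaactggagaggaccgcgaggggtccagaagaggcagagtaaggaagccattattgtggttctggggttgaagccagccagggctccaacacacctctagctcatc
Cer1: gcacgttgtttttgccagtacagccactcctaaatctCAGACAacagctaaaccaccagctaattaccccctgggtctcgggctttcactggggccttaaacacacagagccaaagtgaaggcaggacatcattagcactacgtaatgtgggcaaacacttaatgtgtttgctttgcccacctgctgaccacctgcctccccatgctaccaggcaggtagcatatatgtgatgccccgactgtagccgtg

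Both strands of these stretches were searched for 5 short motifs: AATNCACA, of the type bound by FOXH1, CAGACA, of the type bound by SMAD proteins, TAATCC, for OTX2 and Goosecoid, TGTTTAC, for forkhead factors, and TCACACC, for T-box factors. The Cer1 stretch held CAGACA, 213 bases before the start site, and the motif occurs in 17.1% of the 32851 mouse promoter stretches of the same length. The other 4 motifs occur in 3.18%, 6.25%, 3.17% and 3.33% of them. No other match was found in the entries of the 7 members, which says only that these letters are not in these windows. G and C made up 53.2% of the Nodal stretch and 51.6% of the Cer1 stretch.

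Gdf3 (ENSMUSG00000030117.4, chromosome 6, 122605403 to 122610087, minus strand), a relative of Nodal that signals through the same receptors, was found in a single library. Endoderm replicate 3 held 14 counts, or 1.66 CPM, and the other 11 libraries had 0, which allows up to 0.723 CPM in the shallowest. Gdf1, the partner with which Nodal forms heterodimers, shares all of its exon bases with Cers1 on chromosome 8. The Cers1 row was at 0 counts in all 12 libraries. The annotation used in counting is not given, and reads in more than 1 gene were tallied apart. Those zeros therefore say nothing of the Gdf1 level.

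Tdgf1 (ENSMUSG00000032494.8), also called Cripto, encodes the EGF-CFC co-receptor of the gastrula and lies on the minus strand of chromosome 9 at 110939603 to 110946158. It was the most abundant member per length of exon in 3 of the 4 types. Its levels were 376, 327 and 367 CPM in YFP-positive cardiac mesoderm, 270, 228 and 307 in YFP-negative cardiac mesoderm, and 269, 239 and 242 in endoderm. Hematopoietic mesoderm held 36.4, 46.2 and 239 CPM. The YFP-positive libraries were above all 9 others, endoderm and the YFP-negative fraction overlapped, and hematopoietic replicate 3 reached the range of both. Means were 356 ± 26.2, 268 ± 39.6, 250 ± 16.3 and 107 ± 114 CPM in this order (SD, n = 3). Between the 2 cardiac fractions the log2 fold change was 0.41 ± 0.51 (SE).

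Against hematopoietic mesoderm the log2 fold changes of Tdgf1 were 1.73 ± 0.53 for the YFP-positive fraction, 1.32 ± 0.52 for the YFP-negative fraction and 1.22 ± 0.52 for endoderm. Without hematopoietic replicate 3 they were 3.11, 2.70 and 2.60. That library was also high in Eomes, a T-box factor of the early mesendoderm, at 264 CPM against 49.4 and 28.2, and in the homeobox gene Mixl1, at 363 CPM against 50.8 and 27.9. It held the most T of its type, at 374 CPM against 261 and 213. It held the least of another homeobox gene, Lhx1, at 3.78 CPM against 4.82 and 53.0, and had 0 counts of Mesp1. Its epiblast marker sum was 59.2 CPM, against 9.40 and 7.27, but Fgf5 alone gave 56.1 CPM, 3 of the 7 markers were at 0, and Pou5f1 and Utf1 were each at 0.210 CPM, below the 2.42 and 3.12 CPM of replicate 2. The part of other cells in its Tdgf1 level was not tested. A pseudogene, Tdgf1-ps1, shares 8.86% of the 50-base stretches of Tdgf1 and had 0 to 13 counts per library.

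Cfc1 (ENSMUSG00000026124.3), or Cryptic, encodes the other EGF-CFC co-receptor and is known for its part in left-right patterning. It lies on the plus strand of chromosome 1 at 34535648 to 34544313. Its levels were 8.12, 6.56 and 11.7 CPM in YFP-positive cardiac mesoderm, 3.69, 3.64 and 33.2 in YFP-negative cardiac mesoderm and 9.70, 7.64 and 6.77 in endoderm, and all 3 hematopoietic libraries had 0 counts. The 3 types that expressed it overlapped, and each lay above hematopoietic mesoderm: at least 14.1-fold for the YFP-positive fraction, 21.6-fold for the YFP-negative fraction and 12.9-fold for endoderm. The YFP-negative mean of 13.5 ± 17.0 CPM rested on replicate 3, which held 229 of its counts against 22 and 26. Between the cardiac fractions the log2 fold change was -0.62 ± 1.16 (SE), and 1.23 without that library. Without it the YFP-negative mean was 3.66 CPM, at least 5.87-fold above hematopoietic mesoderm.

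Of the 2 co-receptors, Cfc1 was not detected in hematopoietic mesoderm at this depth and Tdgf1 was found in every library. At its 3' end Cfc1 overlaps Prss40, a gene on the opposite strand, over 27.8% of the exon bases of Cfc1. Whether counting used the strand is not given in the sources used here. Prss40 had 0, 1 and 50 counts in YFP-positive cardiac mesoderm, 0, 1 and 5 in YFP-negative cardiac mesoderm, 11, 12 and 8 in endoderm and 0, 0 and 9 in hematopoietic mesoderm.

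The receptors varied least among the types. Acvr1b (ENSMUSG00000000532.9), the type I receptor ALK4, lies on chromosome 15 at 101174067 to 101213684. It was at 196, 103 and 160 CPM in YFP-positive cardiac mesoderm, 136, 144 and 138 in YFP-negative cardiac mesoderm, 130, 134 and 137 in endoderm, and 146, 155 and 52.1 in hematopoietic mesoderm. Libraries of every pair of types overlapped, and the 6 log2 fold changes lay between 0.06 and 0.38, each with an SE of 0.36. Hematopoietic replicate 3 was the lowest of the 12 libraries, whereas for Tdgf1 it was the highest of its type.

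Acvr2b (ENSMUSG00000061393.7), a type II activin receptor on chromosome 9 at 119402118 to 119434995, was at 47.9, 47.5 and 49.4 CPM in hematopoietic mesoderm. Levels were 23.1, 59.6 and 24.4 CPM in the YFP-positive fraction, 28.8, 21.4 and 41.1 in the YFP-negative fraction, and 24.3, 36.5 and 29.4 in endoderm. Hematopoietic mesoderm lay above the YFP-negative fraction and endoderm without overlap, and their log2 fold changes against it were -0.66 ± 0.56 and -0.68 ± 0.56 (SE). It overlapped with the YFP-positive fraction through replicate 2 of that fraction, without which the YFP-positive mean was 23.8 CPM.

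**Figure D1:**
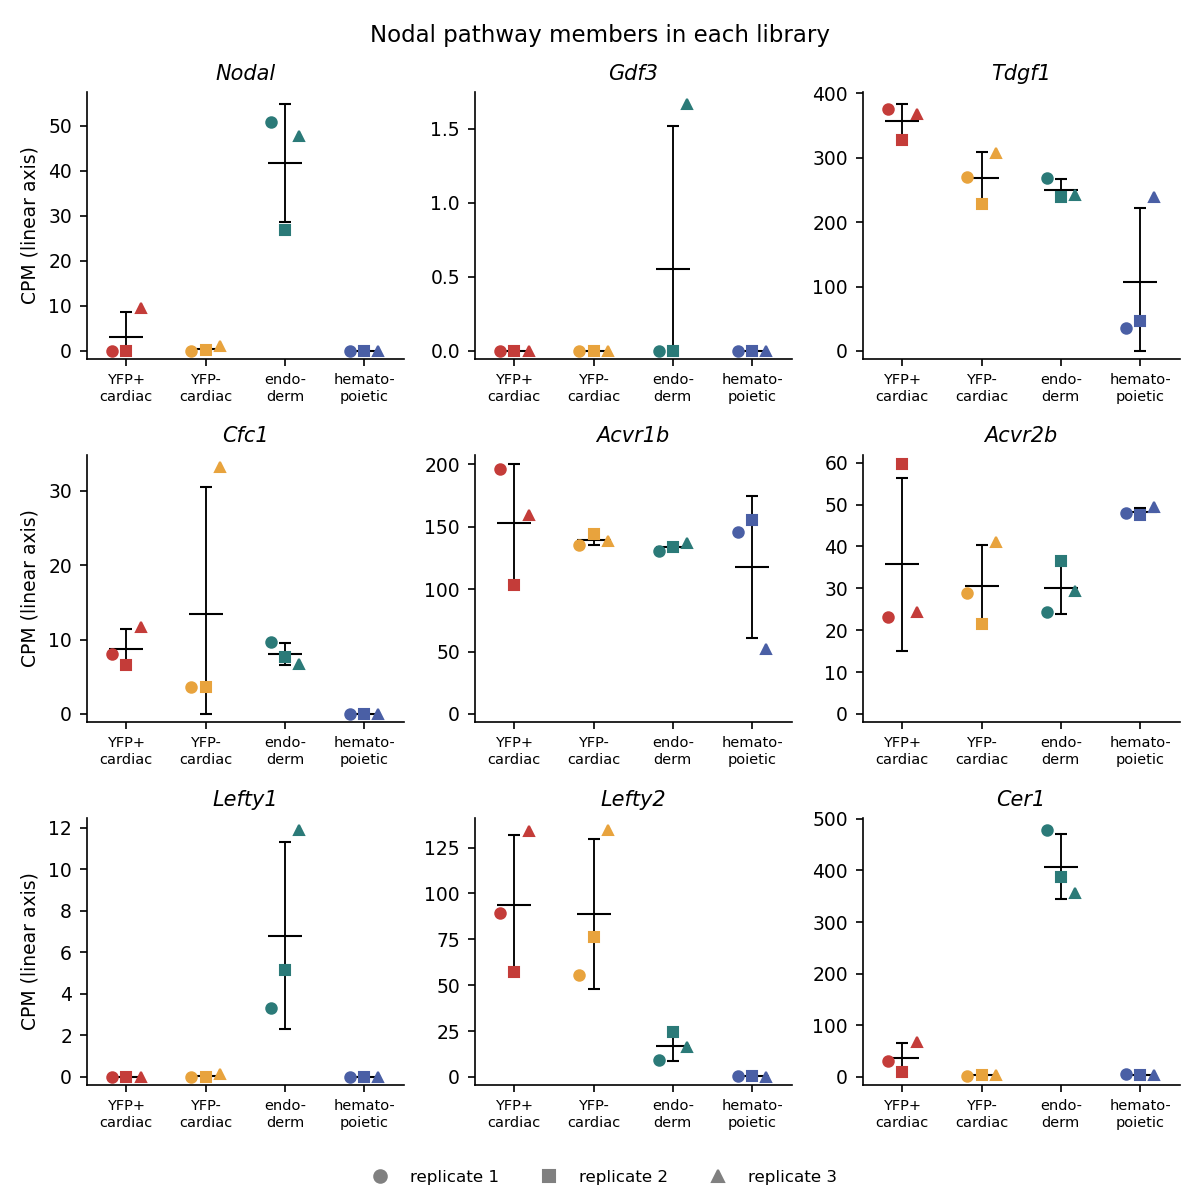
Level of each Nodal pathway member in the 12 libraries, in CPM on linear axes that differ between panels, where symbols give the replicate number, horizontal lines the mean of a type and bars 1 SD (cut at 0). Nodal, Lefty1 and Cer1 are highest in the 3 endoderm libraries, Lefty2 in the 6 cardiac libraries, and Tdgf1 in hematopoietic replicate 3, at 239 CPM, reaches the endoderm range.

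Lefty1 and Lefty2 are neighbouring genes on the plus strand of chromosome 1, at 180935022 to 180938400 and 180893108 to 180899103, and both encode soluble inhibitors of Nodal that act on the ligand and its co-receptor. Their coding sequences are 1107 bases each and 91.9% identical over 1017 matching positions, with a longest identical run of 140 bases. Reads aligned to more than 1 place are tallied apart from genes in the files, so the stretch of this length in which the genes differ at the most bases is shown, to let a reader see what tells them apart: bases 46 to 165 of each coding sequence (GENCODE M21 on GRCm38). It is written 5' to 3', and capitals mark the 34 of 120 bases that differ.

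Lefty1: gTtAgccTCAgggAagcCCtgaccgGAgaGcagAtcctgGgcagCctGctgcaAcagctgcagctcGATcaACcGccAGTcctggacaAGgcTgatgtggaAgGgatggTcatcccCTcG
Lefty2: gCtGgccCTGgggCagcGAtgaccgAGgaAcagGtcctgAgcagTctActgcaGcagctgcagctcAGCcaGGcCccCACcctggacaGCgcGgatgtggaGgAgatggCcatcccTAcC

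Over whole transcripts, 17.9% of the 50-base stretches of Lefty1 occur in Lefty2 and 12% of those of Lefty2 occur in Lefty1, so most of each gene could be told from the other at that read length. The read length itself is not given in the sources used here.

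The 2 Lefty genes were highest in different types, and both were found in endoderm. Lefty1 (ENSMUSG00000038793.8) was at 3.34, 5.18 and 11.9 CPM in endoderm, from 21, 40 and 100 counts. It had 0 counts in all YFP-positive and all hematopoietic libraries and 1 count in all in the YFP-negative fraction. Endoderm, with a mean of 6.80 ± 4.50 CPM (SD, n = 3), exceeded YFP-positive cardiac mesoderm by at least 11.8-fold and hematopoietic mesoderm by at least 10.9-fold. Replicate 3 carried much of this mean, which was 4.26 CPM without it, with bounds of 7.40-fold and 6.82-fold. Against the single YFP-negative count the ratio was 141, with a 95% counting interval of 25.4 to 5709, and 88.2 without endoderm replicate 3.

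Lefty2 (ENSMUSG00000066652.5) was instead highest in cardiac mesoderm, at 89.5, 57.2 and 134 CPM in the YFP-positive and 55.8, 76.5 and 134 CPM in the YFP-negative fraction. Endoderm held 9.07, 24.6 and 16.4 CPM and hematopoietic mesoderm 0.482, 0.693 and 0.210 CPM, the last from 2, 4 and 1 counts. The cardiac fractions overlapped, all 6 cardiac libraries were above endoderm, and all 3 endoderm libraries were above hematopoietic mesoderm. Means were 93.5 ± 38.4, 88.9 ± 40.7, 16.7 ± 7.77 and 0.462 ± 0.242 CPM in this order (SD, n = 3). Over endoderm the log2 fold changes were 2.48 ± 0.59 (SE) for YFP-positive cardiac mesoderm and 2.41 ± 0.59 for the other fraction. Over hematopoietic mesoderm the ratios of means were 203, 193 and 36.2 for the YFP-positive fraction, the YFP-negative fraction and endoderm, with counting intervals of 94.9 to 489, 91.8 to 472 and 17.3 to 90.2.

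Cer1 (ENSMUSG00000038192.5), which encodes Cerberus-like, a secreted antagonist of Nodal and BMP made by the anterior visceral and the definitive endoderm, lies on the minus strand of chromosome 4 at 82881751 to 82885148. It was at 478, 387 and 357 CPM in endoderm. The YFP-positive fraction held 31.2, 10.4 and 67.7 CPM, the YFP-negative fraction 2.35, 4.76 and 3.77, and hematopoietic mesoderm 5.06, 3.29 and 3.15. Endoderm was above all others, the YFP-positive libraries were above those of the YFP-negative fraction and of hematopoietic mesoderm, and these last types overlapped. Endoderm averaged 407 ± 63.0 CPM (SD, n = 3), which was 11.2 times the YFP-positive, 112 times the YFP-negative and 106 times the hematopoietic mean. Without YFP-positive replicate 3 the first of these ratios was 19.6. Between the cardiac fractions the log2 fold change was 3.32 ± 0.57 (SE), and 2.50 without YFP-positive replicate 3.

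Within the YFP-positive fraction the epiblast marker sum had the order of Cer1 over replicates 1, 2 and 3, at 301, 142 and 472 CPM. So did T, a T-box factor of the primitive streak and notochord, at 73.7, 18.4 and 104 CPM. Between the fractions T went the other way from Cer1. It was lower in every YFP-positive library than in every YFP-negative one, where it was at 105, 121 and 124 CPM. Another node marker, Foxj1, was higher in every YFP-positive library, from 1, 2 and 5 counts against 0. The epiblast sum was 173, 133 and 264 CPM in YFP-negative libraries, so the fractions overlapped. Foxa2 and Cldn6 were the 2 of 7 general endoderm markers with the YFP-positive replicate order of Cer1. Cldn6 averaged 197 CPM in endoderm. It was at 6.45, 2.92 and 21.1 CPM in YFP-positive libraries and 0.838, 0.701 and 4.49 CPM in YFP-negative ones. The 7 general endoderm markers summed to 446, 210 and 264 CPM and to 228 to 278 CPM in these fractions, with Gata6, which averaged more in both cardiac fractions than in endoderm, as the largest part. None of the 7 was higher in every YFP-positive than in every YFP-negative library, and Foxa2 was at 0 in YFP-positive replicate 2 and in all YFP-negative libraries. The 9 visceral endoderm markers summed to 190 to 271 CPM in YFP-positive libraries and to 120 to 161 CPM in YFP-negative ones, most of it from Dab2, at 148 to 208 and 113 to 152 CPM. Of the 9, Apob and Cubn were higher in every YFP-positive than in every YFP-negative library, as Cer1 was. Apob, a lipoprotein gene, was at 8.74, 59.8 and 28.9 CPM against 3.04 to 4.19 CPM, and averaged 1680 CPM in endoderm. Cubn, an endocytic receptor gene, was at 6.45, 3.28 and 7.96 CPM against 0.869 to 1.17 CPM, and averaged 850 CPM in endoderm. Ttr did not exceed 1.85 CPM and Afp 0.925 CPM in any cardiac library, and they averaged 113 and 104 CPM in endoderm. Cubn, Ttr and Afp were the 3 of 9 with the YFP-positive replicate order of Cer1. For Ttr this came from 5, 1 and 10 counts and for Afp from 3, 1 and 5. That order was also found in 4 of the 7 epiblast markers and 1 of the 8 cardiac mesoderm markers. The part of other cells in the Cer1 level was not tested.

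Levels were compared between members only per kb of merged exon. In YFP-positive cardiac mesoderm the order was Tdgf1 at 136, Lefty2 at 35.8, Acvr1b at 34.6, Cer1 at 21.0, Acvr2b at 9.09, Cfc1 at 8.44 and Nodal at 1.50 CPM per kb. In the YFP-negative fraction Tdgf1 at 102 was again first and Lefty2 at 34.1 and Acvr1b at 31.5 followed, while Cer1 was at 2.08. In endoderm Cer1 led at 234, followed by Tdgf1 at 95.3, Acvr1b at 30.2, Nodal at 19.9 and Cfc1 at 7.73, with Lefty2 at 6.39 and Lefty1 at 3.87. In hematopoietic mesoderm Tdgf1 at 40.9, Acvr1b at 26.6 and Acvr2b at 12.3 CPM per kb were followed by Cer1 at 2.20 and Lefty2 at 0.177, and Nodal, Gdf3, Cfc1 and Lefty1 had 0 counts there. Neighbours in these orders often overlapped, as Lefty2 and Acvr1b did in both cardiac fractions.

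**Figure D2:**
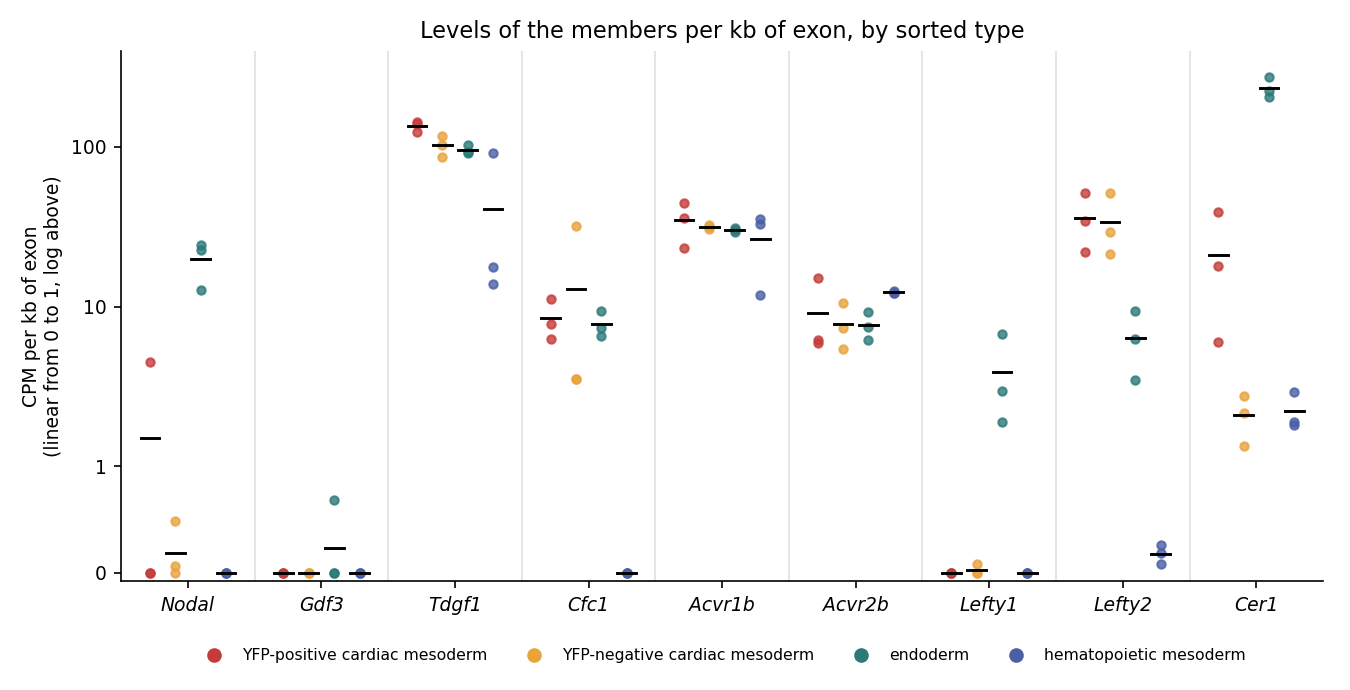
Level of each member per kb of exon in every library (points) with the mean of each type (black line), on an axis that is linear from 0 to 1 and logarithmic above. Tdgf1 is first in both cardiac fractions and in hematopoietic mesoderm, and Cer1, at 234 CPM per kb, is first in endoderm.

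Across all genes, an edgeR fit with Benjamini-Hochberg adjustment at 0.05 tested 14170 genes in each pair of types. It called 0% of them between the 2 cardiac fractions, and 0 of the 8 members tested, although Cer1 was called there by DESeq2, under no expression filter, as 1 of 2 genes, and without YFP-positive replicate 2. There were 1062 genes at an unadjusted p under 0.05 in that pair, and DESeq2 called 100. The share called was 1.54% between YFP-positive cardiac mesoderm and endoderm and 1.31% between the YFP-negative fraction and endoderm, with Cer1 as the 1 member in each. Against hematopoietic mesoderm it was 1.79% for the YFP-positive fraction, with 3 members (Cfc1, Lefty2 and Cer1), 0.593% for the YFP-negative fraction, with 1 (Lefty2), and 5.65% for endoderm, with 3 (Cfc1, Lefty2 and Cer1). With the replicate number as a block, Cfc1 was no longer among the members called for the YFP-positive fraction, and with only those 2 types in the fit Cer1 was not. Nothing is read from these counts, since the members were selected on their levels in these libraries.

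The median log2 fold change over the tested members was 0.18 between the cardiac fractions, against 0.03 over all genes. Against endoderm it was 0.16 for the YFP-positive fraction and 0.04 for the YFP-negative one, where all genes gave 0.01 in both. Against hematopoietic mesoderm the members' medians were 2.49, 1.54 and 5.91 for the YFP-positive fraction, the YFP-negative fraction and endoderm, beside 0.03, 0.02 and 0.07 over all genes. Members with 0 counts throughout hematopoietic mesoderm enter these medians at fitted values that depend on the count added to zeros. Nodal and Lefty1 passed the expression filter only through endoderm, the type where they are high. The members were selected on their levels in these libraries, so nothing is read from these medians.

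Likeness over the 12 libraries was measured as Pearson's r of log2(CPM + 1) with each of 10428 genes that averaged at least 10 CPM in 1 type or more. The libraries share depth, sorting and type, so r is given as a description. Nodal was most like Foxa2 (r = 0.979), Spink1 (0.977) and Mecom (0.971), and Cer1 was most like Tmem106c (0.963), Spink1 (0.961) and Foxa2 (0.958). Tdgf1 was most like the transcription factor genes Eomes (0.973), Sall4 (0.970) and Setbp1 (0.967). Lefty2 was most like the ephrin gene Efna3 (0.982), the Notch ligand gene Dll3 (0.975) and the homeobox gene Meis1 (0.968).

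For Lefty1 the nearest genes were Foxr2 (0.995), Fgfbp1 (0.992) and Foxd3 (0.990), and for Cfc1 they were Pm20d1 (0.941), Pik3ip1 (0.921) and Prmt8 (0.911). Lefty1 had at most 1 count in any library outside endoderm, so its r values rest on the 3 endoderm libraries against zeros. The r values of Nodal rest largely on endoderm in the same way. Acvr1b was nearest to Mrtfa (0.970), Wdr61 (0.953) and Kat14 (0.951), and Acvr2b to Emsy (0.920), Zdhhc3 (0.914) and Tubgcp6 (0.896). Between members, r was 0.937 for Nodal and Cer1, 0.885 for Nodal and Lefty1, 0.847 for Lefty1 and Cer1, 0.855 for Cfc1 and Lefty2, and 0.750 for Tdgf1 and Cfc1. The 2 Lefty genes, in contrast, gave r = -0.046.

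**Figure D3:**
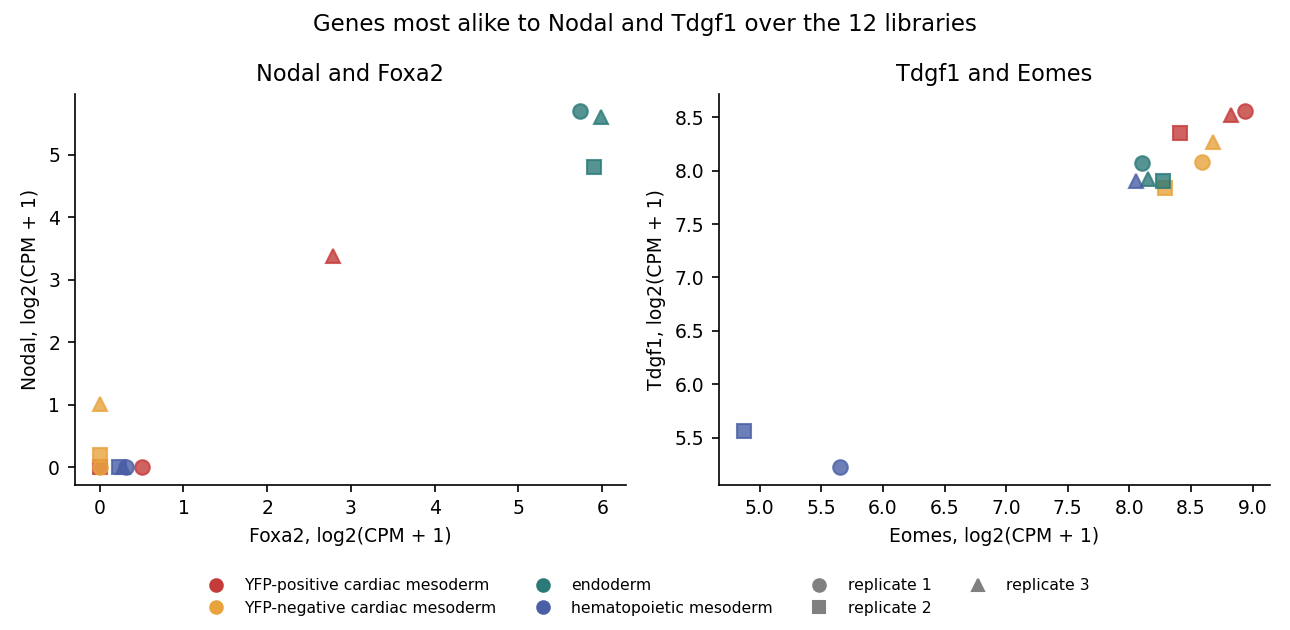
Nodal against Foxa2 (left) and Tdgf1 against Eomes (right) in the 12 libraries, as log2(CPM + 1), with colour for the type and symbol for the replicate number. YFP-positive replicate 3 lies between the endoderm libraries and the rest for Nodal and Foxa2 (r = 0.979), and hematopoietic replicate 3 lies with endoderm for Tdgf1 and Eomes (r = 0.973).

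The rest of the pathway was described with 47 other genes in 6 roles, of which 41 passed the expression filter. Over the 6 pairs of types, edgeR called 21 differences in 8 of these genes: Pcsk5, Smad7, Skil, Pmepa1, Lhx1, Otx2, Mesp1 and Chrd. Over all genes tested, 6.82% were called in at least 1 pair. The list was chosen with earlier results of these data known, so nothing is read from its counts, in whole or by role. The list gave 0 calls between the cardiac fractions, where 5 of its genes had an unadjusted p under 0.05. Against endoderm it gave 3 calls among the 41 genes for YFP-positive cardiac mesoderm, where 1.54% of all genes were called, and 2 for YFP-negative cardiac mesoderm, where 1.31% were. Against hematopoietic mesoderm it gave 5, 4 and 7 calls for the YFP-positive fraction, the YFP-negative fraction and endoderm, beside 1.79%, 0.593% and 5.65% of all genes. With the replicate block, the calls for Pmepa1, Lhx1 and Mesp1 between the YFP-negative fraction and hematopoietic mesoderm and for Mesp1 between the YFP-positive fraction and hematopoietic mesoderm were lost.

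Among the proprotein convertases, Pcsk5 was the 1 of 3 called in at least 1 pair, beside 6.82% of all genes tested. Furin and Pcsk6, or PACE4, are the convertases known for cutting the Nodal precursor, while Pcsk5 is known for processing other ligands of the family such as Gdf11. YFP-positive cardiac mesoderm held 326, 265 and 203 CPM and the YFP-negative fraction 208, 176 and 191 CPM, while endoderm was at 4.93, 2.98 and 8.56 CPM, without overlap. Hematopoietic mesoderm held 77.1, 73.3 and 190 CPM. Over endoderm the YFP-positive fraction gave a log2 fold change of 5.58 ± 0.50 (SE) with an adjusted p of 1.29e-04 in edgeR, and the YFP-negative fraction 5.12 ± 0.49 with 1.35e-04. Endoderm against hematopoietic mesoderm gave -4.36 (edgeR adjusted p = 3.60e-04). These 3 calls held in all 11 alternative fits of each pair. Endoderm was the type with the most Nodal and the least Pcsk5 transcript. Furin was at means of 91.9 ± 62.0, 46.3 ± 24.1, 45.2 ± 11.3 and 39.3 ± 14.7 CPM in the YFP-positive, YFP-negative, endoderm and hematopoietic libraries (SD, n = 3). Pcsk6 averaged 8.37 ± 5.42 CPM in endoderm and 1.87 ± 1.69 or less elsewhere.

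Other ligands and traps gave no call in 3 of 8 genes tested. The activin genes Inhba and Inhbb were at 0 counts in all 9 mesoderm libraries. Endoderm replicates 1, 2 and 3 held 0, 0 and 27 counts of Inhba and 0, 3 and 0 of Inhbb. The inhibin gene Inha, which did not pass the filter, was at 4.77, 1.42 and 0 CPM in endoderm and had at most 1 count in a mesoderm library. The activin trap follistatin, Fst, was at 97.5, 140 and 88.5 CPM in endoderm, 38.9, 5.83 and 21.7 in YFP-positive cardiac mesoderm, and 51.3, 44.3 and 67.6 in the YFP-negative fraction. Hematopoietic mesoderm held Fst at 0.241, 0 and 81.1 CPM, so that replicate 3 again stood apart. Gdf11, another TGF-beta family ligand, averaged 11.7 to 23.8 CPM over the types. Dand5, a Cerberus relative that antagonises Nodal at the node, had 0 counts in the YFP-positive fraction and averaged 6.68 ± 3.34 CPM in the YFP-negative fraction and 5.71 ± 0.568 CPM in endoderm (SD, n = 3). Hematopoietic mesoderm held Dand5 at 18.1, 0.173 and 25.0 CPM.

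The other receptors and the transducers gave no call in 4 and 7 genes tested. Acvr2a, the second type II activin receptor, averaged 232 ± 48.7, 174 ± 9.82, 98.5 ± 21.3 and 168 ± 146 CPM in YFP-positive, YFP-negative, endoderm and hematopoietic libraries (SD, n = 3). Tgfbr1 averaged 70.7 to 196 CPM and Acvr1 31.4 to 67.0 CPM over the types, and Tgfbr2 had 0 counts in the YFP-positive fraction. Acvr1c, the type I receptor ALK7, did not pass the filter. Smad2 averaged 122 to 172 CPM, Smad4, the shared partner of the receptor-regulated SMADs, 137 to 201 CPM, Trim33, a SMAD-binding ubiquitin ligase, 307 to 477 CPM, and Zfyve9, which anchors SMADs to the receptors, 93.3 to 143 CPM.

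Of 12 genes that limit the signal inside the cell, 3 were called in at least 1 pair, beside 6.82% of all genes tested. Smad7, an inhibitory SMAD, was at 120, 85.1 and 110 CPM in YFP-positive cardiac mesoderm and at 16.4, 14.9 and 28.9 CPM in endoderm, which gave a fitted difference of 2.39 ± 0.51 on the log2 scale (SE, adjusted p = 0.0354 in edgeR). It was not called when any 1 of those 6 libraries was left out, and the adjusted p over all alternatives ran from 1.42e-04 to 0.204. Smad7 was also lower in endoderm than in hematopoietic mesoderm, with -2.36 on the log2 scale (adjusted p = 0.0227 in edgeR), a call that 2 of the 6 fits without a library kept.

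Pmepa1, a membrane protein that sequesters SMADs, was at 53.5, 73.6 and 99.7 CPM in YFP-positive cardiac mesoderm and at 0, 1.04 and 3.36 CPM in hematopoietic mesoderm, a difference of 5.66 on the log2 scale (adjusted p = 0.0155 in edgeR). The YFP-negative fraction, at 54.6, 78.3 and 41.4 CPM, gave 5.28 (edgeR adjusted p = 0.0340), and endoderm, at 16.5, 25.8 and 43.4 CPM, gave 4.26 (edgeR adjusted p = 0.0252). Skil, or SnoN, a nuclear repressor of SMADs, averaged 348 ± 20.4, 340 ± 27.5, 411 ± 37.9 and 170 ± 74.4 CPM in YFP-positive, YFP-negative, endoderm and hematopoietic libraries (SD, n = 3). Against hematopoietic mesoderm edgeR called it in the YFP-positive fraction (log2 fold change 1.03, adjusted p = 0.0481) and in endoderm (1.27, adjusted p = 0.0106). Ski, Smurf2 and Tgif1 were not called, with means of 159 to 243, 262 to 356 and 71.7 to 166 CPM over the types.

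Among 12 genes known as Nodal targets in the gastrula, 4 were called in at least 1 pair, beside 6.82% of all genes tested. Otx2, a homeobox factor of the anterior epiblast and anterior endoderm, was at 184, 64.0 and 252 CPM in YFP-positive cardiac mesoderm, 135, 84.1 and 123 in YFP-negative cardiac mesoderm, 362, 346 and 365 in endoderm and 2.65, 0.693 and 2.73 in hematopoietic mesoderm. The hematopoietic libraries were below all others. The log2 fold changes over them were 6.39 (edgeR adjusted p = 4.72e-04), 5.84 (edgeR adjusted p = 9.58e-04) and 7.49 (edgeR adjusted p = 2.82e-05) for the YFP-positive fraction, the YFP-negative fraction and endoderm, and each held in all 11 alternative fits.

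Lhx1, a LIM homeobox factor, was at 546, 386 and 689 CPM in the YFP-positive fraction, 238, 250 and 368 in the YFP-negative fraction, 398, 440 and 425 in endoderm, and 4.82, 53.0 and 3.78 in hematopoietic mesoderm. Its log2 fold changes over hematopoietic mesoderm were 4.70 (edgeR adjusted p = 0.0120), 3.77 (edgeR adjusted p = 0.0415) and 4.33 (edgeR adjusted p = 0.00770), and without hematopoietic replicate 2 they were 6.98, 6.06 and 6.62. Mesp1, the early marker of cardiac mesoderm, was at 11.4, 19.9 and 54.0 CPM in the YFP-positive and 38.9, 26.5 and 47.7 CPM in the YFP-negative fraction, against 0.482, 0.173 and 0 CPM in hematopoietic mesoderm. The ratios were 130 and 173 with counting intervals of 48.4 to 692 and 62.6 to 892, and both were called (edgeR adjusted p = 0.0356 and 0.0415).

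Chrd, which encodes the BMP antagonist Chordin of the node, was at 49.1, 83.4 and 66.1 CPM in endoderm and did not exceed 0.693 CPM in the other 9 libraries. Endoderm exceeded the YFP-positive fraction 343-fold (counting interval 120 to 1709), the YFP-negative fraction 1371-fold (241 to 53213) and hematopoietic mesoderm 287-fold (96.3 to 908), with edgeR adjusted p = 0.0184, 0.0116 and 0.0133. Leaving out 1 library kept 0, 1 and 3 of 6 calls in these pairs. Eomes averaged 427 ± 77.6, 368 ± 50.2, 288 ± 17.1 and 114 ± 130 CPM, Mixl1 222 ± 113, 272 ± 51.2, 170 ± 46.6 and 147 ± 187 CPM, and T 65.5 ± 43.6, 117 ± 10.3, 176 ± 63.5 and 283 ± 82.8 CPM in YFP-positive, YFP-negative, endoderm and hematopoietic libraries (SD, n = 3), with no call.

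**Figure D4:**
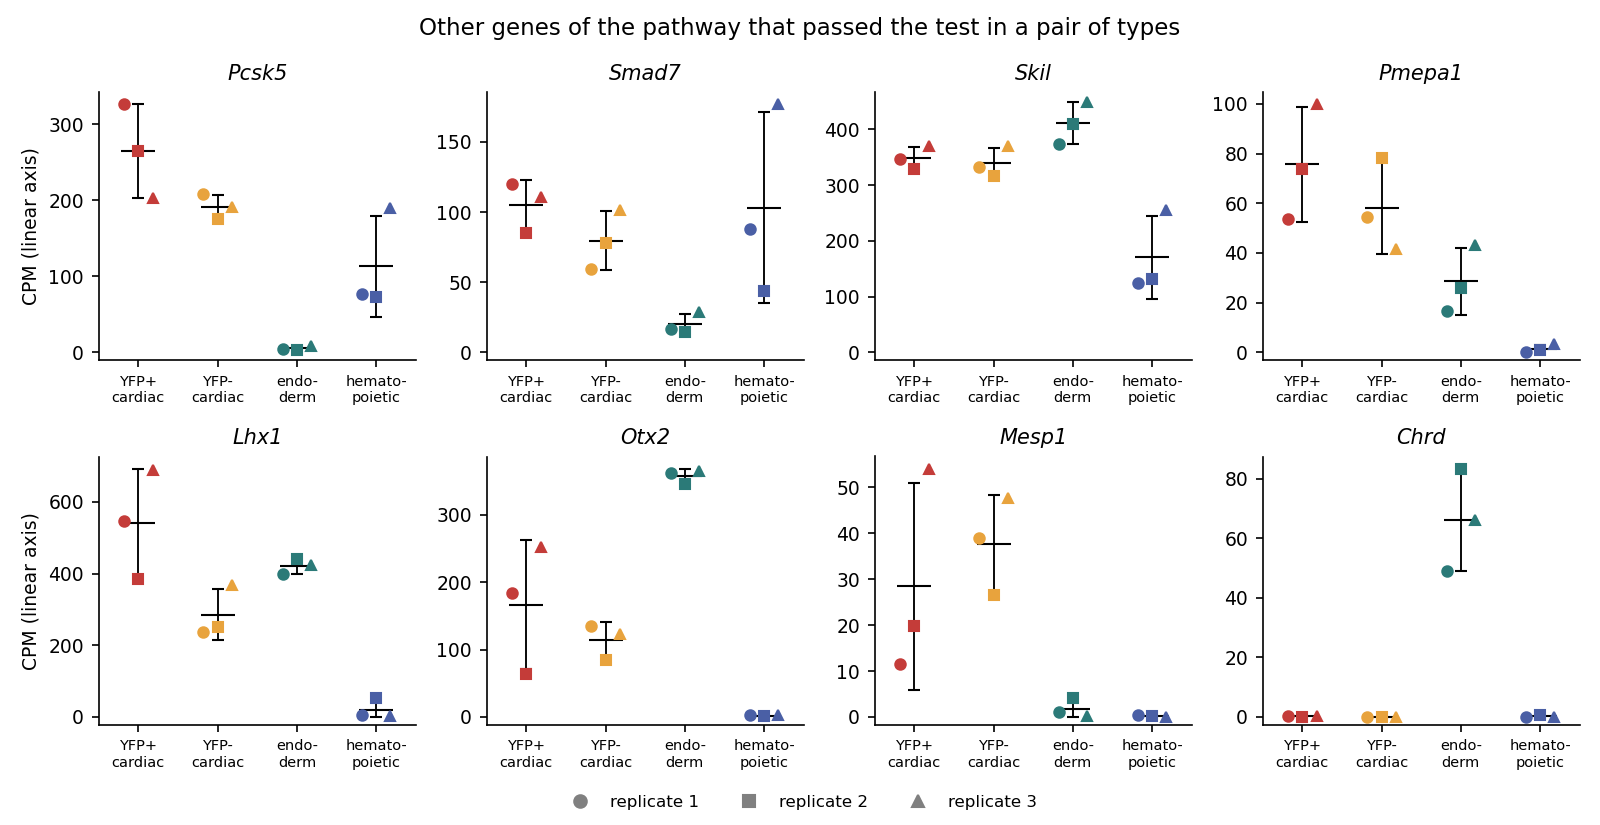
Levels in CPM, on linear axes that differ between panels, of the 8 other pathway genes called in at least 1 pair of types, with symbols for the replicate number, lines for the mean and bars for 1 SD (cut at 0). Pcsk5 is lowest in endoderm, Otx2 and Lhx1 are lowest in hematopoietic mesoderm, and Chrd is found in endoderm, at 49.1 to 83.4 CPM.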

How the data were processed

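RNA was purified with a nanoprep kit and amplified with low-input NuGEN chemistry, per the labels. The deposited values are raw counts of reads per gene, whole numbers that were not normalized, with summary categories for reads in no gene, in more than 1 gene or aligned to more than 1 place. STAR 2.5.0a, Picard, HTSeq 0.6.0 and DESeq2 are named with mm10, per the submitters' processing notes, without role or order. The annotation, read length and strand setting are not given in the sources used here. Reads that were amplified and carry no molecular identifier do not each stand for a molecule, so floors and counting intervals cover counting error only.

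The analysis used edgeR 4.0.16 under R 4.3.3 (trimmed-mean scaling, default expression filter, 14170 genes, quasi-likelihood test, 1 coefficient per type over 12 libraries, 8 residual degrees of freedom). The 6 pairs of types were tested two-sided, adjusted over all genes of a pair by the Benjamini-Hochberg method, and called at an adjusted p under 0.05. Reads in no gene, in several genes or not uniquely aligned were left out, which left 18.3% to 21.5% of reads. SEs were derived from the fold change and the F statistic. The procedure was tested on simulated data. Gene positions, exon lengths and coding sequences come from GENCODE M21 on GRCm38, where 4 of the 10 members have the same identifier version as in the files, and promoters from RefSeq. Sharing between genes was counted over stretches of 50 bases. The members, the pathway and marker lists and the tests were chosen with earlier results of these data known. The naming rule took every member, every pathway gene called, up to 4 per role by mean level, and the 3 most alike genes of each member. Inhba, Inhbb and Acvr1c were named outside this rule. Motifs were chosen after the levels were known.

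One date per replicate number, shared by the 4 types, stands in the names of the files, and what it dates is not stated, so the numbers may pair libraries. The deviations of same-numbered libraries from their type means correlated at -0.0151 to 0.0371 over genes, and a fit with the number as a block was run. The other alternatives were RLE scaling, no expression filter, DESeq2 1.42.0, only the 2 types compared, and leaving out each library. No pair of libraries within a type agreed within sampling noise.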

Additional observations from a re-analysis of the deposited data

How the results depend on the processing

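Calls were counted again under each alternative. Between the cardiac fractions 0 genes were called, with 2 under no expression filter, 1 of them Cer1, 100 by DESeq2 and 0 to 1 with a library left out. For YFP-positive cardiac mesoderm against endoderm the 218 calls became 924 by DESeq2, 1063 with only those types in the fit, and 71 to 159 with a library left out. For the YFP-negative fraction against endoderm the 185 calls became 604, 1360 and 69 to 100 in that order. For the YFP-positive fraction against hematopoietic mesoderm the 253 calls became 1491, 13 and 106 to 426, and for the YFP-negative fraction the 84 calls became 1061, 10 and 16 to 247, with 174 under no filter. For endoderm against hematopoietic mesoderm the 800 calls became 1869, 1258 and 180 to 976. With the replicate block, 133 genes were called for the YFP-positive fraction against hematopoietic mesoderm and 31 for the YFP-negative fraction, and the other counts stayed within 1.5 times. The 21 calls of the pathway list became 46 by DESeq2 and 10 to 36 with a library left out, the highest without hematopoietic replicate 3 and the lowest without endoderm replicate 1 or 3. The 9 calls among members became 17 by DESeq2, 15 with only the types compared, and 7 to 14 with a library left out, the highest without hematopoietic replicate 3. Fitted log2 fold changes of members kept their sign in all but 23 of 522 alternative fits, of which 7 were for Acvr2b, 5 for Cfc1, 4 for Acvr1b, 3 for Lefty2, 2 for Cer1 and 1 each for Nodal and Tdgf1. In 31 fits the value moved by more than the spread between libraries: 13 for Lefty1, 12 for Nodal and 6 for Cfc1. That spread was the SD of log2(CPM + 1) combined over the 2 types, to which a type with 0 counts adds 0. These 3 genes had 0 counts throughout hematopoietic mesoderm, where fitted values also depend on the count added to zeros. The causes of these shifts were not tested. No expression filter moved the median log2 fold change of all genes from 0.07 to 0.35 for endoderm against hematopoietic mesoderm and from 0.01 to -0.20 for YFP-positive cardiac mesoderm against endoderm, and the replicate block moved them to 0.29 and -0.13. Depth limits Nodal, Cfc1, Gdf3 and Lefty1 where a type had 0 counts, since 3 counts were worth up to 0.723 CPM.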

Other observations

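Libraries with replicate number 3 tended to hold the highest level of the members, a pattern noticed and counted after the values were seen. Over the 4 types there were 29 combinations of a member and a type with at least 1 count, and the highest of the 3 libraries was replicate 3 in 15 of them (51.7%), replicate 1 in 7 and replicate 2 in 7. Over all genes tested the shares were 33.3%, 33.4% and 33.3% for replicates 3, 1 and 2. In YFP-negative cardiac mesoderm replicate 3 was highest for 6 of 8 members with a count, and in endoderm for 3 of 9. The summed level of the 7 epiblast and ectoderm markers was also highest in replicate 3 of every type, at 472, 264, 889 and 59.2 CPM in YFP-positive cardiac mesoderm, YFP-negative cardiac mesoderm, endoderm and hematopoietic mesoderm, and lowest in replicate 2, at 142, 133, 812 and 7.27 CPM. Otx2 and Fgf5 gave most of these sums in the cardiac and endoderm libraries, and Fgf5 alone gave 56.1 of the 59.2 CPM. Gene by gene, replicate 3 was highest for 5 of 6, 4 of 7, 5 of 7 and 2 of 5 markers with a count in these types. One of these markers, Otx2, is also in the list of Nodal targets. The members share libraries, so these counts are not independent of each other, and no cause was tested.

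Primordial germ cell and extraembryonic ectoderm markers were low in most libraries. The 4 germ cell markers summed to 0 to 33.8 CPM. The 3 extraembryonic ectoderm markers summed to 68.8 CPM in endoderm replicate 3, the 1 library with Gdf3 counts, where Elf5, Cdx2 and Esrrb were at 35.3, 7.96 and 25.6 CPM. In hematopoietic replicate 3 they summed to 68.3 CPM, of which Esrrb alone gave 67.8, with 2 counts of Elf5 and none of Cdx2. The other 10 libraries held at most 22.0 CPM.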
